A study of Mus musculus with 8 samples.

Results

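Enzymes of serine synthesis, of mitochondrial one-carbon metabolism, of transsulfuration and of asparagine and proline synthesis were examined in *Hdac3* knockout (KO) mouse cardiac endothelial cells. The list named 10 genes: *Phgdh*, *Psat1* and *Psph* for serine synthesis, *Shmt2*, *Mthfd2* and *Aldh1l2* for mitochondrial folate reactions, *Cbs* and *Cth* for transsulfuration, *Asns* for asparagine and *Pycr1* for proline. Of these 10 genes, 9 had a row among the 8278 genes of the deposited table. *Cbs*, the first transsulfuration enzyme, has no row in the table, and its level was not analysed here.

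The cells were MCECs, an established mouse cardiac endothelial cell line. *Hdac3* KO MCECs (n = 4 libraries) had received lentiCRISPR v2 lentivirus carrying an *Hdac3* sgRNA, whereas control MCECs (n = 4) had received the empty vector (EV) lentivirus. Both groups therefore carried the lentiviral CRISPR vector, and the study grew the line in DMEM with serum. Bulk RNA-Seq was performed on the 8 libraries, for which the sources used here name no separate cultures or clones. The study speaks both of technical replicates in vitro and of biological replicates by panel, so that the SEs and p-values measure the spread between these libraries, which may be technical.

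The 9 enzymes were chosen by their *Hdac3* KO against EV values in these libraries. Their differences between the groups are therefore given as a description, without a test. The table itself lists only genes selected by the authors' own adjusted p-value, at a looser cut-off than the one by which the study calls genes. Of all 8278 genes, 47.1% were higher and 49.6% were lower in *Hdac3* KO MCECs at an adjusted p-value under 0.01 (edgeR's quasi-likelihood test). Each *Hdac3* KO library was above each EV library for 44.4% of the genes, and below each for 46.6%. The 9 enzymes were all among the genes with every *Hdac3* KO library higher, which is a property of how they were chosen.

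Serine is made from the glycolytic intermediate phosphoglycerate in 3 enzyme steps, and it donates a carbon unit to folate when it is converted to glycine. In mitochondria, folate-bound carbon units are oxidised and released as formate, which the cytosol uses to build purines and thymidylate. Serine also enters transsulfuration, where it is joined to homocysteine on the way to cysteine. Many genes of these pathways, like those of asparagine and proline synthesis, are known targets of Atf4, the transcription factor of the amino acid and integrated stress responses.

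Library totals ranged from 15775327 to 22255684 reads, and the listed genes held 84.3% to 85.9% of them. *Hdac3* itself, counted over the whole gene, had normalized counts of 1943, 2077, 2064 and 2147 in EV libraries 1 to 4 and of 1558, 1465, 1496 and 1531 in *Hdac3* KO libraries 1 to 4. A normalized count is the read count of a gene divided by the relative effective size of its library. All 4 *Hdac3* KO libraries lay below all 4 EV libraries, and the log2 fold change was -0.45 ± 0.035 (SE, adjusted p = 1.0e-13, edgeR). The labelled cell type was checked against 12 endothelial markers, of which 6 had a row. In EV MCECs the mean FPKM was 94.3 for *Cd34*, 21.5 for *Eng* and 2.675 for *Flt1*, but 0.779 for *Tek* and 0.391 for *Kdr*, and *Pecam1* was near 0, with a mean normalized count of 0.518 in EV libraries and of 3.99 in *Hdac3* KO libraries. The endothelial markers summed to 118 to 121 FPKM in EV and 90.15 to 92.7 FPKM in *Hdac3* KO libraries, with 5 of the 6 lower. The 4 fibroblast and mesenchymal markers with a row (of 7) summed to 1451 to 1491 FPKM in EV and 1109 to 1131 FPKM in *Hdac3* KO libraries, with *Col1a1* higher and *Col3a1*, *Dcn* and *Pdgfra* lower. The 2 smooth muscle markers with a row (of 4) went from 24.0 to 29.9 FPKM down to 4.83 to 6.11 FPKM. *Cd68*, the single immune marker with a row (of 4), was 5.36 to 5.89 FPKM in EV and 11.1 to 12.5 FPKM in *Hdac3* KO libraries. *Krt8* and *Krt18*, the 2 epithelial markers with a row (of 4), summed to 1.50 to 2.06 FPKM in EV and 3.56 to 4.81 FPKM in *Hdac3* KO libraries. None of 6 cardiomyocyte markers had a row. These markers differed between the groups together with the enzymes, and their part in the enzyme values was not tested.

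The 3 enzymes of serine synthesis were all higher in *Hdac3* KO MCECs, with *Psat1* and *Psph* about doubled and *Phgdh* less so. *Phgdh* (ENSMUSG00000053398, mm10 chromosome 3, 98313170 to 98339990, minus strand) encodes phosphoglycerate dehydrogenase, which catalyses the committed step. Its normalized counts were 6667, 6858, 6727 and 6706 in EV libraries 1 to 4 and 10877, 10495, 10728 and 11120 in *Hdac3* KO libraries 1 to 4. The EV values lay close together and the lowest *Hdac3* KO library was 1.53 times the highest EV library. The means were 6739 ± 82.7 (SD, n = 4) in EV and 10805 ± 263 (SD, n = 4) in *Hdac3* KO MCECs. The log2 fold change of 0.68 ± 0.026 (SE) was the smallest among the 9 enzymes. The *Phgdh* transcripts share at least 95% identity over at least 200 bases with 9 other annotated genes, all without a row in the table, among them *Gm7901* (98.7% over 1597 bases) and *Phgdh-ps1* (96.6% over 754 bases). How reads were divided among these copies is not given in the sources used here, so that the *Phgdh* count is uncertain to that extent.

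*Psat1* (ENSMUSG00000024640, chromosome 19, 15904678 to 15947337, minus strand) encodes phosphoserine aminotransferase, the second step, which takes its amino group from glutamate. EV libraries 1 to 4 had normalized counts of 6094, 6208, 6281 and 6436, and *Hdac3* KO libraries 1 to 4 had 13801, 13665, 13847 and 14159. No EV library came near the *Hdac3* KO range, and the lowest *Hdac3* KO value was 2.12 times the highest EV value. The mean went from 6255 ± 143 (SD, n = 4) to 13868 ± 209 (SD, n = 4), with a log2 fold change of 1.15 ± 0.026 (SE). *Psph* (ENSMUSG00000029446, chromosome 5, 129765558 to 129787252, minus strand) encodes phosphoserine phosphatase, which releases serine. It had normalized counts of 1612, 1415, 1563 and 1458 in EV libraries and of 3049, 3024, 3194 and 3131 in *Hdac3* KO libraries. The spread was wider in EV (coefficient of variation 6.02%) than in *Hdac3* KO libraries (2.50%), and the groups did not overlap. The *Psph* means were 1512 ± 91.0 (SD, n = 4) in EV and 3099 ± 77.5 (SD, n = 4) in *Hdac3* KO MCECs, and the log2 fold change was 1.04 ± 0.035 (SE). Of the exonic bases of *Psph*, 10.4% overlap *Cct6a* on the opposite strand, and *Cct6a*, a chaperonin subunit gene, had a log2 fold change of 0.86 ± 0.028 (SE). The strand setting of the counting is not given in the sources used here, and the reads of the shared bases cannot be told apart.

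Relative to one another, the serine enzymes shifted. The FPKM ratio of *Psat1* to *Phgdh* was 0.671 ± 0.018 (SD, n = 4) in EV and 0.928 ± 0.011 (SD, n = 4) in *Hdac3* KO MCECs, and the lowest *Hdac3* KO library (0.918) exceeded the highest EV library (0.694). The ratio of *Psph* to *Phgdh* was 0.148 ± 0.010 (SD, n = 4) in EV and 0.189 ± 0.0053 (SD, n = 4) in *Hdac3* KO MCECs, again without overlap. In contrast, the ratio of *Psph* to *Psat1* was 0.220 ± 0.017 (SD, n = 4) in EV and 0.203 ± 0.0043 (SD, n = 4) in *Hdac3* KO MCECs, and the *Hdac3* KO values from 0.201 to 0.210 overlapped the EV values from 0.206 to 0.241. The plot of FPKM ratios by library shows the first 2 of these 3 ratios.

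**Figure D1:**
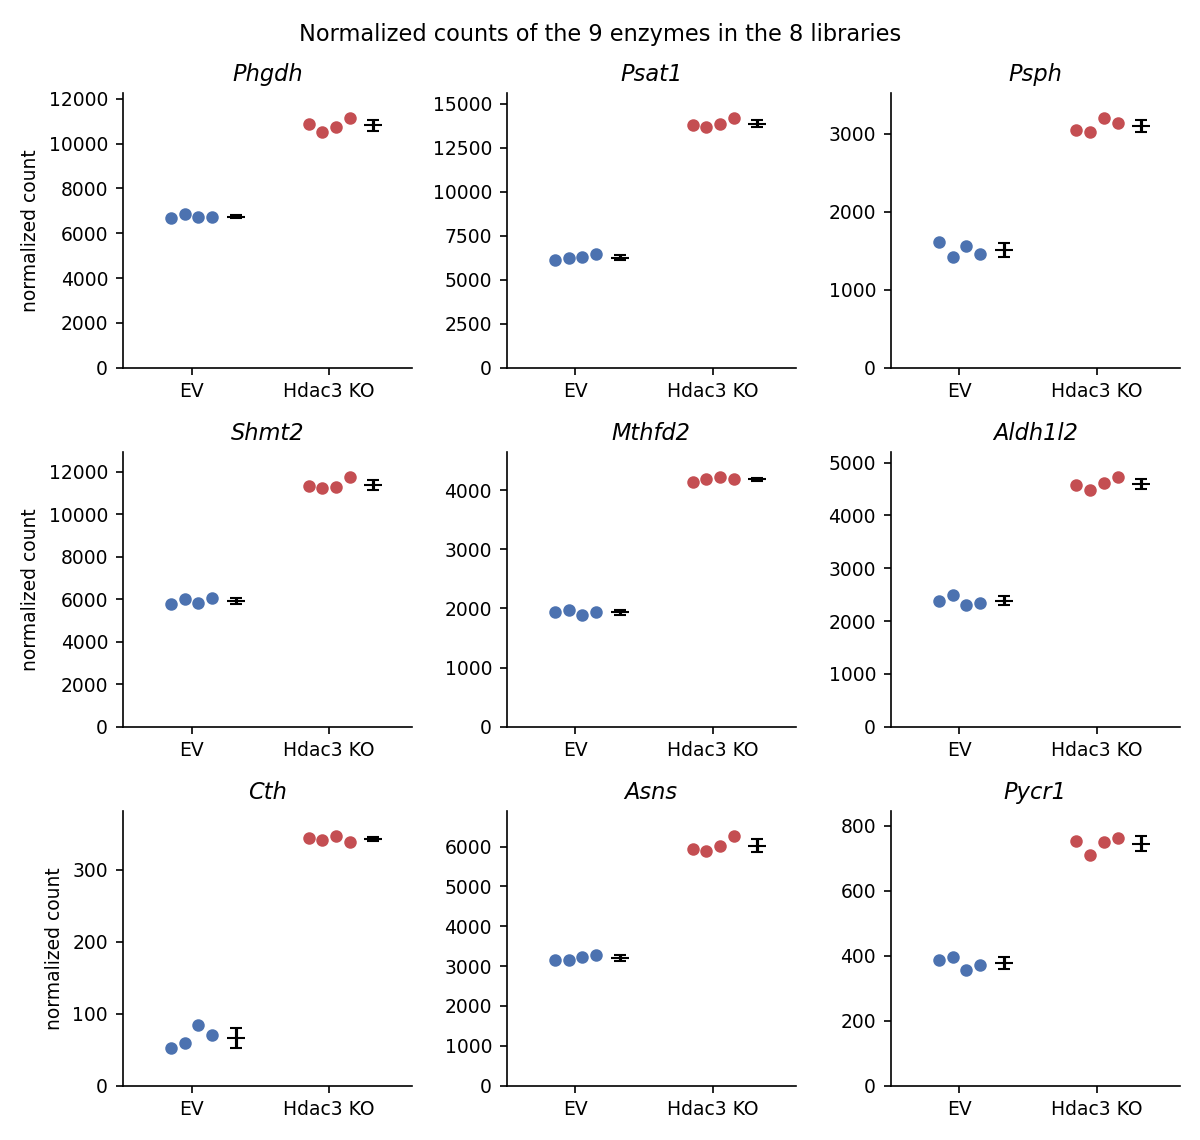
Normalized read counts of the 9 enzymes in each of the 4 EV (blue) and 4 *Hdac3* KO (red) libraries, in the order of their replicate numbers, on linear axes that start at 0; black marks give the mean ± SD of each group. In each panel all 4 *Hdac3* KO points sit above all 4 EV points, and *Cth* shows the widest gap as a ratio, from at most 84.6 in EV to at least 339 in *Hdac3* KO libraries.

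The mitochondrial folate enzymes were each about doubled in *Hdac3* KO MCECs. *Shmt2* (ENSMUSG00000025403, chromosome 10, 127517123 to 127522444, minus strand) encodes the mitochondrial serine hydroxymethyltransferase, which splits serine into glycine and a folate-bound carbon unit. Its normalized counts were 5791, 6003, 5806 and 6065 in EV libraries and 11311, 11235, 11292 and 11734 in *Hdac3* KO libraries. *Hdac3* KO libraries 1 to 3 lay within a narrow range and *Hdac3* KO library 4 stood above them. The means were 5916 ± 138 (SD, n = 4) and 11393 ± 229 (SD, n = 4), a log2 fold change of 0.94 ± 0.026 (SE). *Mthfd2* (ENSMUSG00000005667, chromosome 6, 83305691 to 83317606, minus strand) encodes the mitochondrial methylenetetrahydrofolate dehydrogenase and cyclohydrolase, the next step. EV libraries had normalized counts of 1934, 1981, 1885 and 1946, and *Hdac3* KO libraries had 4145, 4181, 4215 and 4189. The *Hdac3* KO libraries lay close together, with a coefficient of variation of 0.690% where counting error alone gives 1.51%, and far from the EV libraries. The mean went from 1937 ± 39.9 (SD, n = 4) to 4183 ± 28.9 (SD, n = 4), and the log2 fold change was 1.11 ± 0.029 (SE).

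*Aldh1l2* (ENSMUSG00000020256, chromosome 10, 83487450 to 83534140, minus strand) encodes the mitochondrial formyltetrahydrofolate dehydrogenase, which oxidises the carbon unit to carbon dioxide with the formation of NADPH. Normalized counts of 2384, 2499, 2303 and 2342 were found in EV libraries and of 4576, 4488, 4611 and 4719 in *Hdac3* KO libraries. The groups were apart by a factor of at least 1.80 between any pair of libraries. Means of 2382 ± 84.7 (SD, n = 4) and 4598 ± 95.4 (SD, n = 4) gave a log2 fold change of 0.95 ± 0.030 (SE). The annotation places 14.1% of the exonic bases of *Aldh1l2* over *D10Wsu102e* on the opposite strand, whose own log2 fold change was 0.45 ± 0.038 (SE). For *Shmt2* such an overlap covered 1.03% of the exonic bases, and for *Phgdh*, *Psat1*, *Mthfd2*, *Cth*, *Asns* and *Pycr1* it covered none.

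Within this branch the FPKM ratio of *Mthfd2* to *Shmt2* was 0.362 ± 0.0064 (SD, n = 4) in EV and 0.406 ± 0.0082 (SD, n = 4) in *Hdac3* KO MCECs. The ratio of *Aldh1l2* to *Mthfd2* moved the other way, from 0.425 ± 0.0083 (SD, n = 4) in EV to 0.380 ± 0.0076 (SD, n = 4) in *Hdac3* KO MCECs. In both ratios the libraries of the groups did not overlap, while the sizes of these shifts, by factors of 1.12 and 0.894, were smaller than the doubling of the genes themselves.

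**Figure D2:**
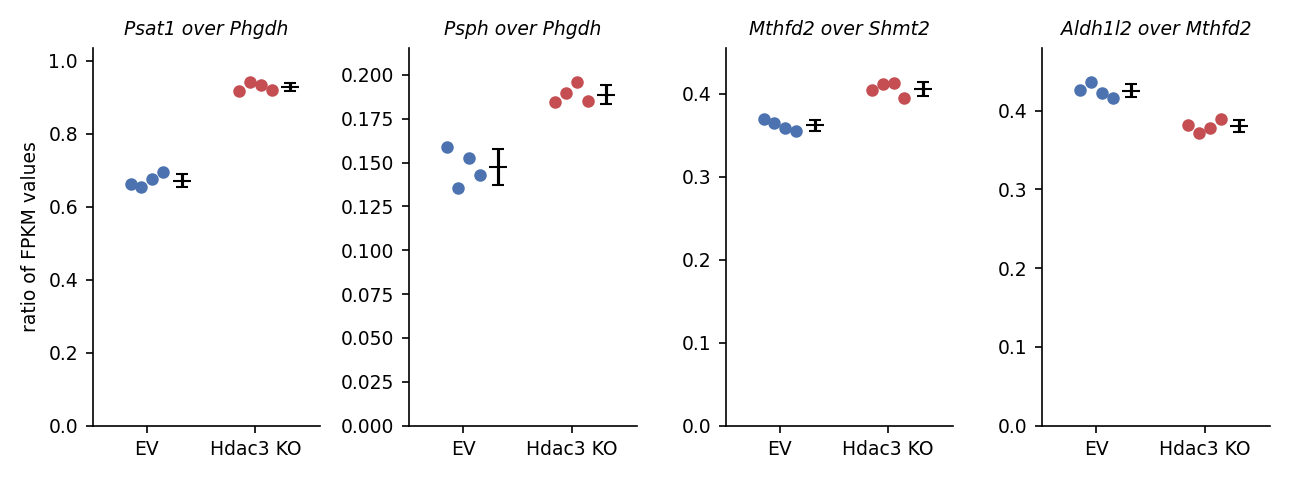
Ratios of FPKM values within serine synthesis (*Psat1* or *Psph* over *Phgdh*) and within the mitochondrial folate branch (*Mthfd2* over *Shmt2*, *Aldh1l2* over *Mthfd2*) in each EV (blue) and *Hdac3* KO (red) library, with the mean ± SD in black; axes start at 0. The ratio of *Psat1* to *Phgdh* shows the largest shift, by a factor of 1.38, and the ratio of *Aldh1l2* to *Mthfd2* is the single panel with lower *Hdac3* KO values.

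These mitochondrial enzymes have cytosolic or second mitochondrial counterparts, which were not part of the list. Their values in the test across all genes are given, but the counterparts too were chosen with earlier results of these data known. *Shmt1*, the cytosolic hydroxymethyltransferase, rose with a log2 fold change of 0.42 ± 0.034 (SE, adjusted p = 2.4e-13, edgeR). *Mthfd1*, the cytosolic trifunctional enzyme, rose by 0.27 ± 0.029 (SE) on the log2 scale (adjusted p = 3.5e-10, edgeR). With library totals without TMM, the rise of *Mthfd1* was 0.15 and still passed the threshold (adjusted p = 1.6e-05, edgeR). *Mthfd1l*, the mitochondrial formate-releasing synthetase, is part of the same mitochondrial route and not a counterpart of the listed enzymes. It rose by 0.48 ± 0.036 (SE) on the same scale (adjusted p = 2.8e-14, edgeR). Each of these 3 log2 fold changes was below those of *Shmt2*, *Mthfd2* and *Aldh1l2*, a comparison that was not tested. Since *Shmt2*, *Mthfd2* and *Aldh1l2* were chosen on this contrast, nothing is read from it. *Mthfd2l*, the second mitochondrial dehydrogenase, did not pass the threshold of 0.01, with a log2 fold change of 0.27 ± 0.10 (SE, adjusted p = 0.014, edgeR). *Aldh1l1*, the cytosolic formyltetrahydrofolate dehydrogenase, was close to the detection limit, with mean normalized counts of 9.35 ± 1.66 (SD, n = 4) in EV and 3.58 ± 0.826 (SD, n = 4) in *Hdac3* KO MCECs. It was called lower (log2 fold change -1.36 ± 0.44, SE, adjusted p = 4.0e-03, edgeR), a call that was lost with DESeq2 (adjusted p = 0.017) and in edgeR without EV replicate 2 (0.014), EV replicate 4 (0.011) or *Hdac3* KO replicate 4 (0.013).

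On the FPKM scale, which corrects for gene length and so allows genes to be compared, *Shmt2* was 5.58 ± 0.028 (SD, n = 4) times *Shmt1* in EV and 8.01 ± 0.24 (SD, n = 4) times in *Hdac3* KO MCECs. *Mthfd2* was level with *Mthfd1* in EV MCECs (ratio 1.02 ± 0.025, SD, n = 4), and was 1.83 ± 0.058 (SD, n = 4) times *Mthfd1* in *Hdac3* KO MCECs. *Mthfd2l* was the minor form, since *Mthfd2* was 17.0 ± 2.5 (SD, n = 4) times as high in EV and 30.2 ± 1.9 (SD, n = 4) times as high in *Hdac3* KO MCECs. *Aldh1l2* had 21.0 ± 0.72 FPKM (SD, n = 4) in EV MCECs, whereas *Aldh1l1* had a mean of 0.119 FPKM. The larger ratios in *Hdac3* KO MCECs can follow from the choice of the enzymes on this contrast, so no shift between compartments is read from them.

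**Figure D3:**
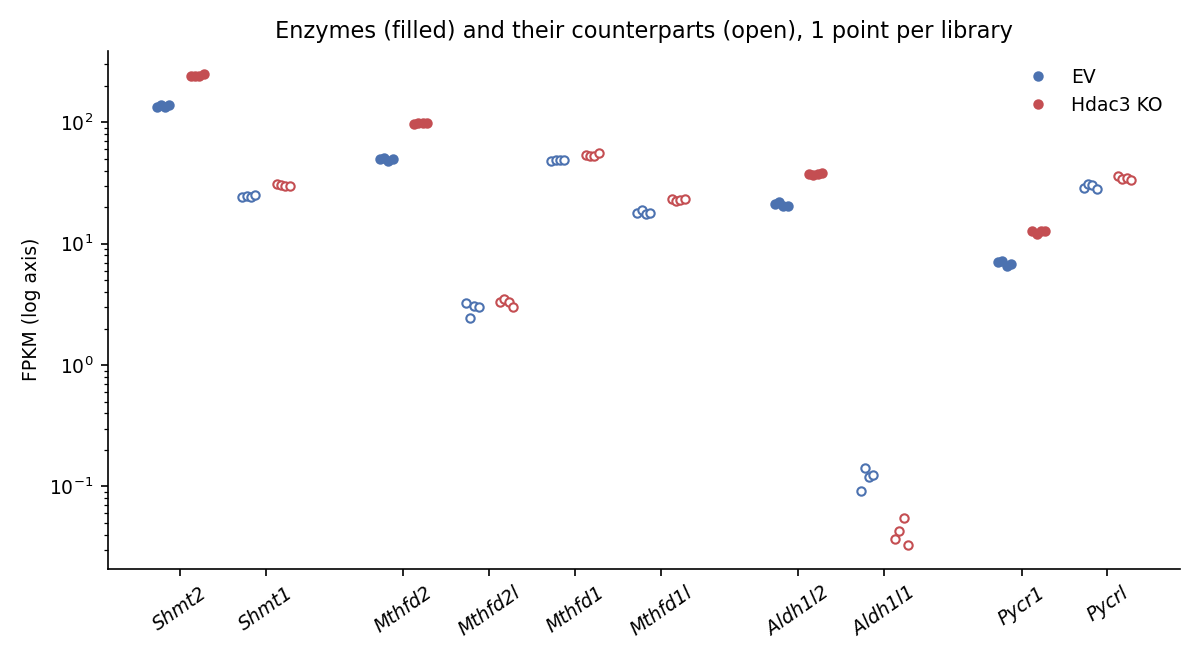
FPKM values on a log axis of the listed enzymes (filled points) beside their counterparts (open points), with 1 point for each EV (blue) and *Hdac3* KO (red) library. The mitochondrial forms *Shmt2*, *Mthfd2* and *Aldh1l2* lie above *Shmt1*, *Mthfd2l* and *Aldh1l1*, while *Pycr1* lies below *Pycrl* in both groups. The open points also include *Mthfd1l*, which is part of the mitochondrial route itself.

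*Cth* had the largest log2 fold change of the 9 enzymes, from the lowest counts. *Cth* (ENSMUSG00000028179, chromosome 3, 157894248 to 157925077, minus strand) encodes cystathionine gamma-lyase, the second transsulfuration enzyme, which releases cysteine and can also produce hydrogen sulfide. Its normalized counts were 52.2, 60.0, 84.6 and 70.1 in EV libraries and 344, 341, 346.5 and 339 in *Hdac3* KO libraries. The EV libraries spread over a coefficient of variation of 21.0%, whereas that of the *Hdac3* KO libraries was 0.911%. Raw counts were 44 to 81 per EV library, for which counting error alone gives 12.45%, and 327 to 373 per *Hdac3* KO library, for which it gives 5.29%. The means were 66.7 ± 14.0 (SD, n = 4) in EV and 343 ± 3.12 (SD, n = 4) in *Hdac3* KO MCECs, and the log2 fold change was 2.35 ± 0.10 (SE). Across pairs of libraries, the *Hdac3* KO values were 4.01 to 6.64 times the EV values.

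*Asns* (ENSMUSG00000029752, chromosome 6, 7675169 to 7693254, minus strand) encodes asparagine synthetase, which transfers the amide group of glutamine to aspartate. EV libraries had normalized counts of 3145, 3158, 3230 and 3290, and *Hdac3* KO libraries had 5946, 5880, 6011 and 6253. The libraries of each group lay within a narrow range and did not overlap. The means of 3206 ± 67.6 (SD, n = 4) and 6022 ± 162 (SD, n = 4) gave a log2 fold change of 0.91 ± 0.028 (SE). *Pycr1* (ENSMUSG00000025140, chromosome 11, 120635712 to 120643769, minus strand) encodes the mitochondrial pyrroline carboxylate reductase, the last step of proline synthesis. It was found at normalized counts of 387, 396.5, 356 and 371 in EV libraries and of 753, 712, 751 and 763 in *Hdac3* KO libraries. The lowest *Hdac3* KO library was 1.79 times the highest EV library. Means of 378 ± 17.8 (SD, n = 4) and 745 ± 22.7 (SD, n = 4) gave a log2 fold change of 0.98 ± 0.053 (SE).

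*Pycrl*, the cytosolic form that is also named *Pycr3*, had 29.7 FPKM in EV and 34.5 FPKM in *Hdac3* KO MCECs. By FPKM *Pycr1* was the lower of these 2 genes, and its ratio to *Pycrl* was 0.232 ± 0.013 (SD, n = 4) in EV libraries and 0.364 ± 0.016 (SD, n = 4) in *Hdac3* KO libraries. As *Pycr1* was chosen on this contrast, nothing is read from the larger ratio. In the test across all genes, *Pycrl* rose by 0.33 ± 0.044 (SE) on the log2 scale (adjusted p = 2.6e-08, edgeR). *Asnsd1*, a gene with a domain similar to asparagine synthetase, has no row in the table.

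The start regions of *Asns* and *Pycr1* are shown because they are the windows of the listed genes that hold the 8-letter core of the amino acid response element, TGATGNAA, to which Atf4 and C/EBP proteins are known to bind. RefSeq windows of GRCm38.p6, from 250 bases before to 50 bases after a start site, were found for 8 of the 10 genes (*Psat1* has 2), while *Cth* and *Aldh1l2* have no entry. The letters were searched on both strands, where N stands for any base, and no other motif was searched. Capitals mark the match. The *Asns* stretch, at chr6:7693225-7693459 on the minus strand, ends with the match, whose first base lies 23 bases before the start site and within an annotated exon of a longer *Asns* transcript. The *Pycr1* stretch, at chr11:120643749-120643998 on the minus strand, holds the match at 103 bases before the start site.
Asns: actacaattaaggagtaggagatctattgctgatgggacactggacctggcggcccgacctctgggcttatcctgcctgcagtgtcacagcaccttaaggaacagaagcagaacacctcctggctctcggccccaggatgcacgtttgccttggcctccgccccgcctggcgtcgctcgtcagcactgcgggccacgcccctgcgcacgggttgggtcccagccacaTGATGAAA
Pycr1: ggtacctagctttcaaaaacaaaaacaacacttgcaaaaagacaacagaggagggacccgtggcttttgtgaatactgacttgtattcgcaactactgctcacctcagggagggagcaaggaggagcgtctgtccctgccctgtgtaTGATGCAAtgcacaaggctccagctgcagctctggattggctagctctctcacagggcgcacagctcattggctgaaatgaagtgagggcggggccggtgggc
The match was therefore present in 2 of 9 windows of the listed genes (22.2%), in 3.97% of all 32851 windows and in 2.21% of the 7870 windows of genes in the table. The 7 windows without it belong to *Phgdh*, *Psat1*, *Psph*, *Shmt2*, *Mthfd2* and *Cbs*. A match of letters is a description and not a bound site, and no match says only that these letters are not in the window.

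By FPKM the enzymes spanned a wide range of levels. In EV MCECs the order was *Phgdh* (188 to 192 FPKM), *Shmt2* (134 to 139.5), *Psat1* (124 to 130), *Asns* (83.1 to 86.5), *Mthfd2* (48.2 to 50.4), *Psph* (26.1 to 29.9), *Aldh1l2* (20.4 to 22.0), *Pycr1* (6.52 to 7.22) and *Cth* (1.54 to 2.49). In *Hdac3* KO MCECs, *Psat1* (256.5 to 265 FPKM) stood above *Shmt2* (239 to 249 FPKM), and the other enzymes kept their places. FPKM values carry no TMM factor (mean 1.04 in EV and 0.96 in *Hdac3* KO libraries), so that ratios between the groups are smaller on this scale than for normalized counts. No pair of neighbours in either order overlapped between their libraries. *Phgdh* ranked 293 of 8278 genes in EV and 198 in *Hdac3* KO MCECs, while *Cth* ranked 7126 in EV and 4624 in *Hdac3* KO MCECs. The 9 enzymes together took 0.151% ± 0.00099 (SD, n = 4) of all reads in EV and 0.270% ± 0.0043 (SD, n = 4) in *Hdac3* KO MCECs.

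Set against all genes of the table, the median log2 fold change of the 9 enzymes was 0.98, with a range of 0.68 to 2.35, while that of all 8278 genes was 0.056, with an interquartile range of -0.47 to 0.34. Log2 fold changes of at least 1 were found for *Psat1*, *Psph*, *Mthfd2* and *Cth*, and for 4.43% of all genes. Without TMM factors, *Psph* (0.92) and *Mthfd2* (0.99) were below 1. A value of at least 0.5 was found for all 9 enzymes and for 15.1% of all genes. Above *Cth* lay 68 genes, above *Psat1* 293, and above *Phgdh* 763. Since the enzymes were selected on this contrast, nothing is read from their place in it.

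**Figure D4:**
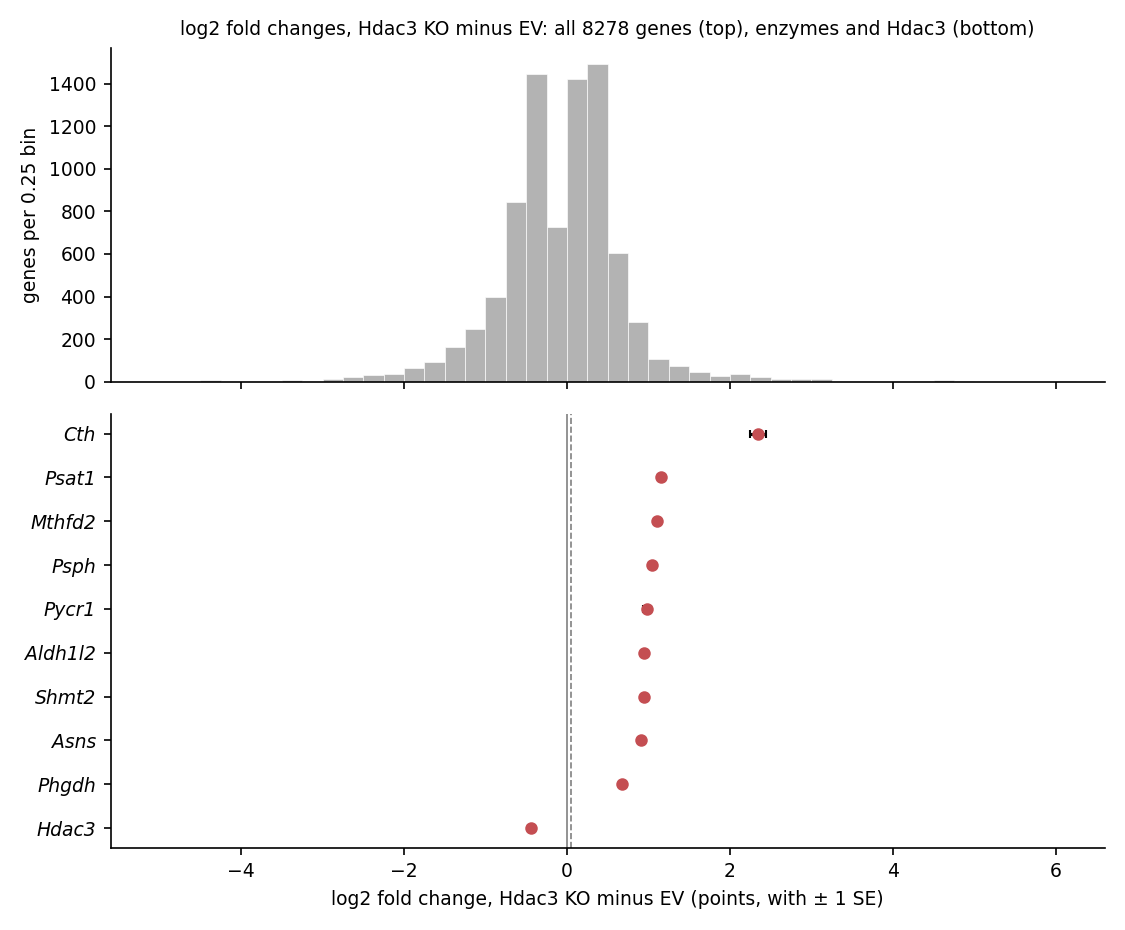
Log2 fold changes of *Hdac3* KO minus EV MCECs, as the number of genes per 0.25 bin for all 8278 genes of the table (top) and for the 9 enzymes and *Hdac3* with ± 1 SE (bottom); the dashed line marks the median of all genes at 0.056. Of the enzymes, 8 lie between 0.68 and 1.15 and *Cth* at 2.35, while *Hdac3* lies at -0.45; most error bars are narrower than the points.

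Within each group, the same libraries were often the highest or the lowest. How often this held over all genes of the table was not computed, so it is not read as a trait of the enzymes. *Hdac3* KO library 4 was the highest of its group for 6 of the 9 enzymes (*Phgdh*, *Psat1*, *Shmt2*, *Aldh1l2*, *Asns* and *Pycr1*), and *Hdac3* KO library 2 was the lowest for 7 of them. Among EV libraries, library 2 was the highest for 4 enzymes and library 1 the lowest for 5. For each enzyme the lowest *Hdac3* KO library was nevertheless above the highest EV library, by a factor that was smallest for *Phgdh*, at 1.53.

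The genes whose profiles over the 8 libraries were nearest to the median profile of the enzymes were *Hspd1*, *Fhl1*, *Hspa9*, *Slc3a2* and *Atf4*, out of 7308 genes that reached a group mean of 100 normalized counts in EV or *Hdac3* KO MCECs. The measure was the root mean square distance of log2(normalized count + 1) values, each taken relative to its EV mean, and it was 0.0266, 0.0280, 0.0301, 0.0338 and 0.0349 for these genes. *Hspd1* and *Hspa9* encode mitochondrial chaperones, *Slc3a2* the heavy chain shared by several amino acid transporters, and *Fhl1* a LIM domain protein. *Atf4* had normalized counts of 5114, 5117, 5211 and 5240 in EV libraries and of 10261, 10410, 10458 and 10305 in *Hdac3* KO libraries. Its groups were apart in every library, with a log2 fold change of 1.002 ± 0.025 (SE). Such a difference follows from its nearness to enzymes that were chosen on this contrast. It is given here as a description, without a test. Of the enzymes, *Shmt2* lay closest to their median profile (0.0345), and *Cth* lay farthest (0.996). Genes outside the list lay closer than each enzyme, from 4 genes for *Shmt2* to 5549 for *Cth*. The profile therefore does not single out the enzymes.

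To place the enzymes among the genes around them, 5 further lists of 120 genes in all were examined, of which 79 genes had a row. These lists were chosen with earlier results of these data known, so their counts and medians are a description and not independent evidence. In the test across all genes, 56 of these 79 rose, 20 fell and 3 did not pass the threshold of 0.01 (edgeR), with a median log2 fold change of 0.47. The counts by list stand beside backgrounds of 47.1% higher and 49.6% lower. Without TMM factors, 50 of the 79 genes were called higher and 20 lower, beside 32.3% and 49.8% of all genes. The lists then lost at most 2 rises each, and their medians fell to 0.16 for the folate list, 0.13 for the methionine list, 0.22 for the proline list, 0.61 for the transporters and 0.73 for the regulators. Opposite-strand exons cover 30.25% of the exonic bases of *Slc6a9*, 29.96% of *Srr*, 20.7% of *Cebpb*, 19.7% of *Gart*, 15.4% of *Gss*, 11.6% of *Eif2ak1*, 11.3% of *Mat2a*, 11.05% of *Aldh1l1*, 9% of *Got2*, 8.05% of *Eif2ak3* and 7.26% of *Csad*, whose reads are uncertain to that extent.

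Of 20 genes of the serine, glycine and folate cycle with a row (33 listed), 12 rose, 7 fell and *Mthfd2l* did not pass, with a median log2 fold change of 0.28. The largest rise was that of *Slc19a1*, the reduced folate carrier, with a log2 fold change of 1.24 ± 0.065 (SE, adjusted p = 1.8e-18, edgeR). *Gart* and *Atic*, enzymes of purine synthesis that take up formyl groups from folate, rose by 0.81 ± 0.028 (SE, adjusted p = 1.8e-23, edgeR) and by 0.72 ± 0.029 (SE, adjusted p = 6.4e-22, edgeR). Among the genes that fell, *Sdsl*, a serine dehydratase-like gene, had a log2 fold change of -1.07 ± 0.094 (SE, adjusted p = 1.6e-12, edgeR). *Slc46a1*, the proton-coupled folate transporter, had a log2 fold change of -0.99 ± 0.086 (SE, adjusted p = 1.4e-12, edgeR). *Aldh1l1*, described above, had the lowest value of the list.

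In the list of the methionine cycle, cysteine and hydrogen sulfide, 9 of 16 genes with a row (25 listed) rose, 5 fell, and *Blmh* and *Gss* did not pass. The median log2 fold change was 0.25. *Gclc*, the catalytic subunit of the enzyme that starts glutathione synthesis from cysteine, rose by 1.34 ± 0.050 (SE) on the log2 scale (adjusted p = 1.1e-22, edgeR). *Suox*, sulfite oxidase, rose by 0.75 ± 0.070 (SE, adjusted p = 7.4e-12, edgeR), and *Sqrdl*, which oxidises hydrogen sulfide in mitochondria, by 0.73 ± 0.053 (SE, adjusted p = 1.1e-14, edgeR). *Csad* and *Cdo1*, both of the taurine route from cysteine, were among the 5 genes that fell. Their log2 fold changes were -0.99 ± 0.067 (SE, adjusted p = 1.8e-15, edgeR) and -0.71 ± 0.10 (SE, adjusted p = 1.2e-07, edgeR). That route was not tested as a group. *Mpst*, another source of hydrogen sulfide, fell as well, with a log2 fold change of -0.60 ± 0.056 (SE, adjusted p = 7.5e-12, edgeR). *Cth* was chosen on this contrast and 49.6% of all genes were lower, so nothing is read from its opposite direction to these 3 genes.

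For proline, asparagine, aspartate and glutamate, 9 of 13 genes with a row (21 listed) rose and 4 fell, with a median log2 fold change of 0.33. *Gls2*, a glutaminase, was low in both groups (44.5 ± 6.9 normalized counts in EV and 99.0 ± 11.0 in *Hdac3* KO MCECs, SD, n = 4) and rose by 1.15 ± 0.15 (SE) on the log2 scale (adjusted p = 9.8e-09, edgeR). *Gpt2*, the mitochondrial alanine aminotransferase, rose by 0.996 ± 0.038 (SE, adjusted p = 1.6e-22, edgeR). In contrast, *Ass1*, which uses aspartate to build argininosuccinate, had a log2 fold change of -1.28 ± 0.042 (SE, adjusted p = 1.8e-24, edgeR). *Asl*, the next enzyme of that route, was at -0.62 ± 0.039 (SE, adjusted p = 2.1e-16, edgeR), and *Glul*, glutamine synthetase, at -0.63 ± 0.069 (SE, adjusted p = 3.5e-10, edgeR).

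In the list of transporters of serine, glycine, cystine, asparagine and proline, 11 of 12 genes with a row (23 listed) rose and 1 fell. The median log2 fold change was 0.73. The list also holds carriers of other amino acids, such as *Slc7a5*, so these values do not describe the named amino acids alone. *Slc3a2*, picked above by its profile, is counted among the 11 genes. *Slc7a11*, the cystine and glutamate exchanger, rose by 1.37 ± 0.066 (SE) on the log2 scale (adjusted p = 1.9e-19, edgeR). *Slc7a5*, the light chain of the large neutral amino acid transporter, rose by 1.05 ± 0.027 (SE, adjusted p = 2.3e-27, edgeR). *Slc38a4* was highest in the list by its fitted value but was barely detected, with mean normalized counts of 1.32 in EV libraries and 6.16 in *Hdac3* KO libraries. The smallest rises were those of *Slc38a7*, at 0.22 ± 0.039 (SE, adjusted p = 3.9e-06, edgeR), and *Slc38a2*, at 0.47 ± 0.024 (SE, adjusted p = 9.4e-19, edgeR). *Slc38a7* lost its call when the library totals were used without TMM factors (log2 fold change 0.10). *Sfxn3*, a relative of the mitochondrial serine carrier, was the gene that fell, with a log2 fold change of -0.75 ± 0.031 (SE, adjusted p = 1.7e-21, edgeR).

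All 18 listed regulators of the amino acid response had a row, and 15 rose and 3 fell, with a median log2 fold change of 0.84. *Atf4*, given above as a description without a test, is counted among the 15 and in the median. *Trib3*, a pseudokinase induced by Atf4, had the largest rise at 1.97 ± 0.043 (SE, adjusted p = 1.5e-29, edgeR). *Ddit4*, an inhibitor of mTORC1 signaling, and *Sesn2*, a leucine sensor of the same pathway, rose by 1.26 ± 0.055 (SE, adjusted p = 7.1e-21, edgeR) and by 1.26 ± 0.044 (SE, adjusted p = 1.5e-23, edgeR). The 3 genes that fell each encode a kinase of eIF2 alpha. These were *Eif2ak2* at -0.55 ± 0.039 (SE, adjusted p = 6.1e-15, edgeR), *Eif2ak4* at -0.35 ± 0.062 (SE, adjusted p = 3.2e-06, edgeR) and *Eif2ak3* at -0.21 ± 0.054 (SE, adjusted p = 4.7e-04, edgeR). *Eif2ak1*, the other kinase of this kind, was called higher at 0.12 ± 0.036 (SE, adjusted p = 2.0e-03, edgeR), but its libraries overlapped and the call was lost without TMM factors (0.006 ± 0.036, SE).

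**Figure D5:**
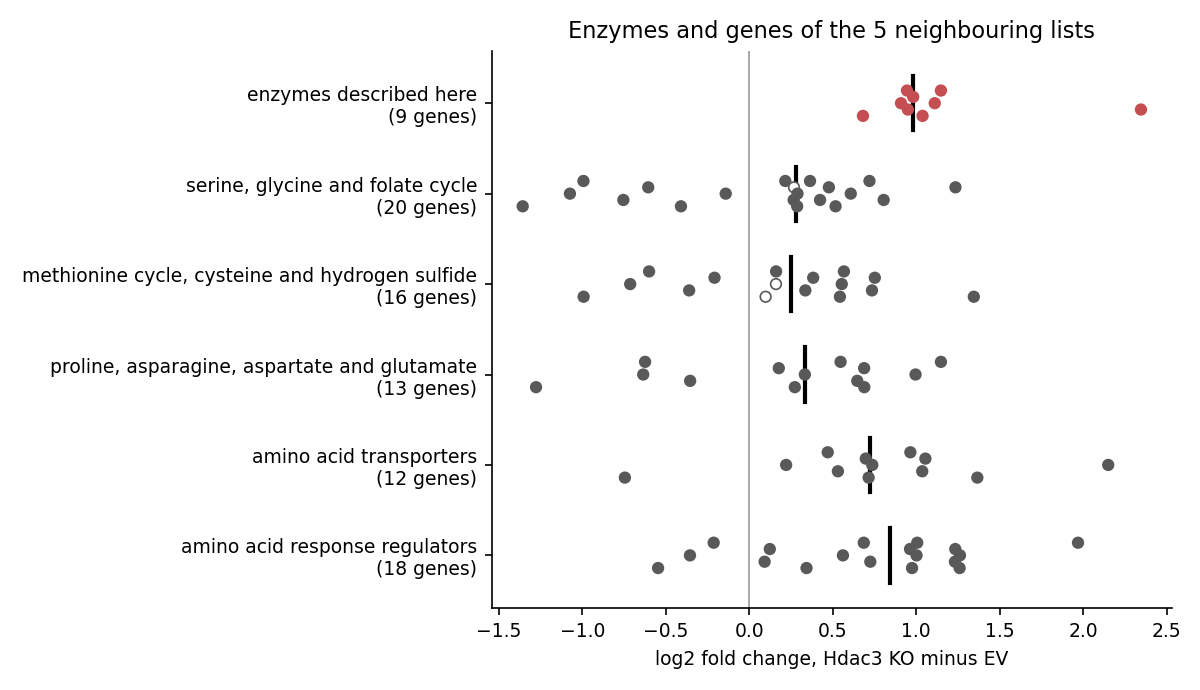
Log2 fold changes of *Hdac3* KO minus EV MCECs for the 9 enzymes (red) and for the genes with a row in 5 lists of related genes (grey: past an adjusted p-value of 0.01; open: not past it), with a black bar at each median. The enzymes have a median of 0.98, and the medians of the lists run from 0.25 for the methionine and cysteine genes to 0.84 for the amino acid response regulators; the rightmost transporter is the barely detected *Slc38a4*.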

How the data were processed

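RNA was sequenced on the Illumina NextSeq500, and tophat2 with bowtie2 served the authors for alignment to mm10. The authors deposited raw read counts and FPKM values per gene for the 8 libraries, with columns of their own fold changes and p-values, which were not used. The processing notes name CASAVA and DESeq 1.6.3. The study's methods credit the count matrix to the lumi package and name cufflinks and DESeq2 for differential expression. Which program assigned reads to genes, its annotation and its strand setting are not given in the sources used here. The deposited table holds 8278 genes, each with an authors' adjusted p-value under 0.05, so that tests are made among genes already selected. Library totals were recovered from counts, gene lengths and FPKM values.

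Counts were fitted across the table with edgeR 4.0.16 (quasi-likelihood test, totals times TMM, Benjamini-Hochberg adjustment, cut-off 0.01 as in the study). Samples were grouped by their titles. On simulated data for this comparison (8278 genes), edgeR recovered 185 of 200 changed genes with 3 false calls. Only these 200 genes were changed in the simulation, whereas 47.1% of the real genes were called higher and 49.6% lower. The simulation therefore cannot show the rate of false calls in the real data. The listed enzymes and the lists of related genes were chosen with earlier results of these data known. Text names all listed enzymes, their counterparts, *Mthfd1l*, *Hdac3* and *Atf4*. By the same rule it names the 3 highest and 3 lowest called genes of each list, and the 5 genes nearest in profile. One gene that this rule names is not reported here. *Eif2ak1*, some of the genes lost or turned by a scaling and some genes overlapping or nearly identical to an enzyme are named besides these, after their values were seen. Alternatives were DESeq2 1.42.0, other scalings, a filter at 10 counts in 4 libraries, a replicate block, a cut-off of 0.05, a prior count of 2, FPKM pseudocounts of 0.1 and 1, a shorter promoter window and leaving out each library.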

Additional observations from a re-analysis of the deposited data

Results flagged for a closer look

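In 5 of the 100 groups of 4 libraries that were examined (50 genes in 2 groups), 1 library stood far from the other 3, as measured by its gap to the nearest of them divided by the range of the group. Chance alone gives about 1 in 20, which is 5 of 100. Among the enzymes this was *Shmt2*, with 11734 normalized counts in *Hdac3* KO library 4 against 11235 to 11311 in the other 3 (gap over range 0.848). *Atic* had 5202 in EV library 2 against 4866 to 4889 (0.932). *Gart* had 4362 in *Hdac3* KO library 2 against 4223 to 4231 (0.940). *Slc38a2* had 12105 in *Hdac3* KO library 2 against 12295 to 12317 (0.899). *Glul* had 407 in EV library 4 against 364 to 371 (0.847).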

How the results depend on the processing

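Of the 50 genes named by rule, none changed direction under the alternatives that were run. The median log2 fold change of the 9 enzymes, 0.98, was 0.86 with library totals without TMM, 0.85 on log2(FPKM + 0.1) and 0.82 on log2(FPKM + 1), and ran from 0.96 to 1.01 when 1 library was left out. These 3 settings carry no TMM factors, and they moved the median of all genes by -0.117, -0.118 and -0.111. The genes called higher numbered 3895, and 2671 without TMM, while 4107 and 4120 were called lower. Without TMM, *Atf5* and *Blmh*, at 0.092 and 0.098 in the lists of related genes, changed sign, and the genes of these lists called higher went from 56 to 50, with *Atf5* and *Eif2ak1* among those lost. *Cth* ranged from 1.81, on log2(FPKM + 1), to 2.47, without 1 library. Among the genes named by rule, the calls that changed were those of *Aldh1l1* and *Slc38a7*, given above, and of *Mthfd2l*, which passed the threshold without EV replicate 1 (adjusted p = 9.9e-03, edgeR) and without *Hdac3* KO replicate 4 (8.8e-03, edgeR).

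Same-numbered libraries did not deviate together (mean correlation -0.021 over 7182 genes, 1 of 4 pairs over 0.1). No pairing by replicate number was seen, but 4 pairs cannot exclude one. With a replicate block the median of the enzymes was 0.98, and 3866 genes were called higher and 4106 lower. Depth limits *Aldh1l1*, *Slc38a4* and *Pecam1*, each with means under 10 normalized counts.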
